A study of Mus musculus with 22 samples.

Results

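Of the measured motile cilia and axoneme genes, 14 of 39 fell in mouse lungs at 1 or more doses of multiwalled carbon nanotubes. The set is a list of 43 mouse genes chosen by their known place in the motile cilium, and each gene was read on its brightest array probe that carries a matching RefSeq accession. A probe was found for 39 of the 43, out of 20018 genes named on the array, and Dnah12, Lrrc23, Ccdc40 and Cdhr4 were not analysed here. All 39 were expressed above background, as were 16426 of the named genes. Of the 39, 6 were called lower at 18 µg (1.43% of all expressed named genes were), 0 at 54 µg (0.134%) and 14 at 162 µg (3.52%), and none was called higher at any dose. At 54 µg 13 members had an unadjusted p under 0.05 in limma, as did 2261 of the 16426 expressed named genes. As the median of the 39, the log2 fold change against control was -0.88, -0.39 and -0.87 at 18, 54 and 162 µg, beside -0.02, -0.01 and -0.01 over all expressed named genes.

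The animals were 22 female C57BL/6 mice aged 8 weeks, and right lung RNA was collected 24 h after a single intratracheal instillation. Control mice (n = 5) received the vehicle, saline with mouse lavage fluid, and the exposed mice received Mitsui7 nanotubes in that vehicle at 18 µg (n = 6), 54 µg (n = 5) or 162 µg (n = 6). Controls were therefore instilled too, and an animal without instillation was not analysed here. Each Agilent array carried the lung RNA of 1 mouse in the Cy5 channel and, in the Cy3 channel, a universal reference made from cultured mouse cells. The comparisons ask how lung expression at 24 h differed from the vehicle at each dose. A value is the log2 ratio of lung to reference after loess normalization. A log2 fold change is the difference of such ratios from control, fitted in limma with the array slide as a term. Changes are listed in the order 18, 54 and 162 µg unless a dose is named. A gene was called when its adjusted p (Benjamini-Hochberg over all probes) was at most 0.05 and its change at least 1.5-fold.

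Motile cilia are the beating hairs of the ciliated cells that line the airways, where they carry mucus and particles out of the lung. Their core, the axoneme, is a ring of microtubule doublets around a central pair. Outer and inner dynein arms on the doublets slide them past each other, radial spokes and the central pair regulate the beat, and nexin links hold neighbouring doublets together. The transcription factors Foxj1, Rfx2 and Rfx3 switch on the genes of this machine while a ciliated cell matures. RFX factors bind a DNA motif known as the X-box.

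The promoters of the members were looked up in a RefSeq table of the GRCm38.p6 build that holds 250 bases before and 50 bases after each transcript start. An entry was found for 33 of the 39, and for Foxj1, Dnaaf1, Rsph1, Rsph4a, Nme5 and Tppp3 no promoter is shown. The X-box, searched on both strands with a spacer of up to 3 bases, matched in 7 of the 33 (21.2%): Dnai1, Dnai2, Dynlrb2, Spag16, Hydin, Tekt2 and Lrriq1. Of all 27025 genes in the table, 1.75% held a match. The shorter motif GTTGCC on either strand, which overlaps the X-box, was present in 20 of the 33 and in 14.1% of all genes. The forkhead motif GTAAACA on either strand was present in 3 of the 33, Ak7, Mlf1 and Sntn, and in 4.05% of all genes. A match is a description of the letters and not a measured binding site. The 150 bases before the start are shown, 5′ to 3′ on the gene's strand, for the 3 members with an X-box that were called, Dnai1, Dnai2 and Hydin, and for Lrriq1, which has a match and was not called at any dose. The probe for Lrriq1 was dim, as given below. Capitals mark the X-box.
Dnai1, chr4:41569644-41569793, plus strand: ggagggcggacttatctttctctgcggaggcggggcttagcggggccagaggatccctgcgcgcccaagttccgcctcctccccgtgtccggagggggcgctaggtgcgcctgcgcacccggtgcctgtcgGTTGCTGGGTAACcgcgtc
Dnai2, chr11:114727269-114727418, plus strand: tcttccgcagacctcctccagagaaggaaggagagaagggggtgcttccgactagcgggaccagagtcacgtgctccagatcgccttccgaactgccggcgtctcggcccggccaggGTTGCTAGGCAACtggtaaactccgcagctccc
Hydin, chr8:110266827-110266976, plus strand: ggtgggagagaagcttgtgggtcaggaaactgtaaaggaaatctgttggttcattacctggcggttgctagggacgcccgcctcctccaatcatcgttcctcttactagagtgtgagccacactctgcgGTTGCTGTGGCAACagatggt
Lrriq1, chr10:103236323-103236472, minus strand: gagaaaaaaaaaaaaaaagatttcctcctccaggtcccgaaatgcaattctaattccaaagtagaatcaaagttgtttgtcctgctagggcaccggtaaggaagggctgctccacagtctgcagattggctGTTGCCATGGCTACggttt
The match began 19 bases before the transcript start in Dnai1, 33 in Dnai2, 21 in Hydin and 19 in Lrriq1. Among the 11 called members with a promoter entry, 3 held an X-box and 6 held GTTGCC, so most called members had no full X-box in this window.

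The lung tissue was checked on its markers before the cilium genes were read. The ciliated cell markers Foxj1, Hydin, Ccdc153 and Tppp3 were well above background on all 22 arrays by the scanner's own flag. The marker Dnah5 was so on every array of the controls, of 18 µg and of 54 µg and on 5 of 6 at 162 µg. The surfactant gene Sftpb of type II alveolar cells, also well above background on all 22 arrays, had a log2 ratio of 6.74 ± 0.31 (SD, n = 5) in control lungs. In control lungs 38 of the 39 members were above the reference RNA, Rfx3 being the exception, and 23 of the 39 were well above background on every array. Because the RNA came from whole lung, fewer ciliated cells and less of these transcripts per ciliated cell cannot be told apart.

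The 3 transcription factors were not called at any dose. Foxj1, the regulator of motile cilium formation, had log2 ratios of 3.94, 3.90, 3.97, 3.23 and 3.29 in the 5 controls. At 18 µg its ratio ran from 2.01 through a median of 2.99 to 3.89, and at 162 µg from 2.34 through 3.36 to 4.17. In the 5 mice at 54 µg it was 2.81, 3.82, 3.30, 2.64 and 3.57. The groups overlapped at every dose, and the number of mice below every control was 3, 2 and 3. For Foxj1 the log2 fold changes were -0.56 (SE 0.27, adjusted p = 0.338), -0.26 (SE 0.29, adjusted p = 0.892) and -0.40 (SE 0.27, adjusted p = 0.499).

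Rfx2 and Rfx3 were close to the reference RNA and their exposed mice lay across the controls. Rfx2 was 0.46, 0.05, 0.30, 0.45 and 0.63 in controls, and its median was 0.56 (0.21 to 0.83) at 18 µg and 0.27 (-0.02 to 0.65) at 162 µg. At 54 µg Rfx2 was -0.14, 0.75, 0.19, 0.30 and 0.12. Rfx3 was -0.33, -0.28, -0.25, 0.00 and -0.05 in controls, and its median was -0.21 (-0.57 to 0.06) at 18 µg and -0.34 (-0.60 to -0.03) at 162 µg. These ranges overlap the controls throughout. At 54 µg Rfx3 was -0.15, -0.24, -0.39, -0.19 and 0.13. The log2 fold change of Rfx2 was 0.15, -0.17 and -0.19 at the 3 doses and that of Rfx3 was -0.12, -0.08 and -0.22, with standard errors from 0.11 to 0.16.

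**Figure D1:**
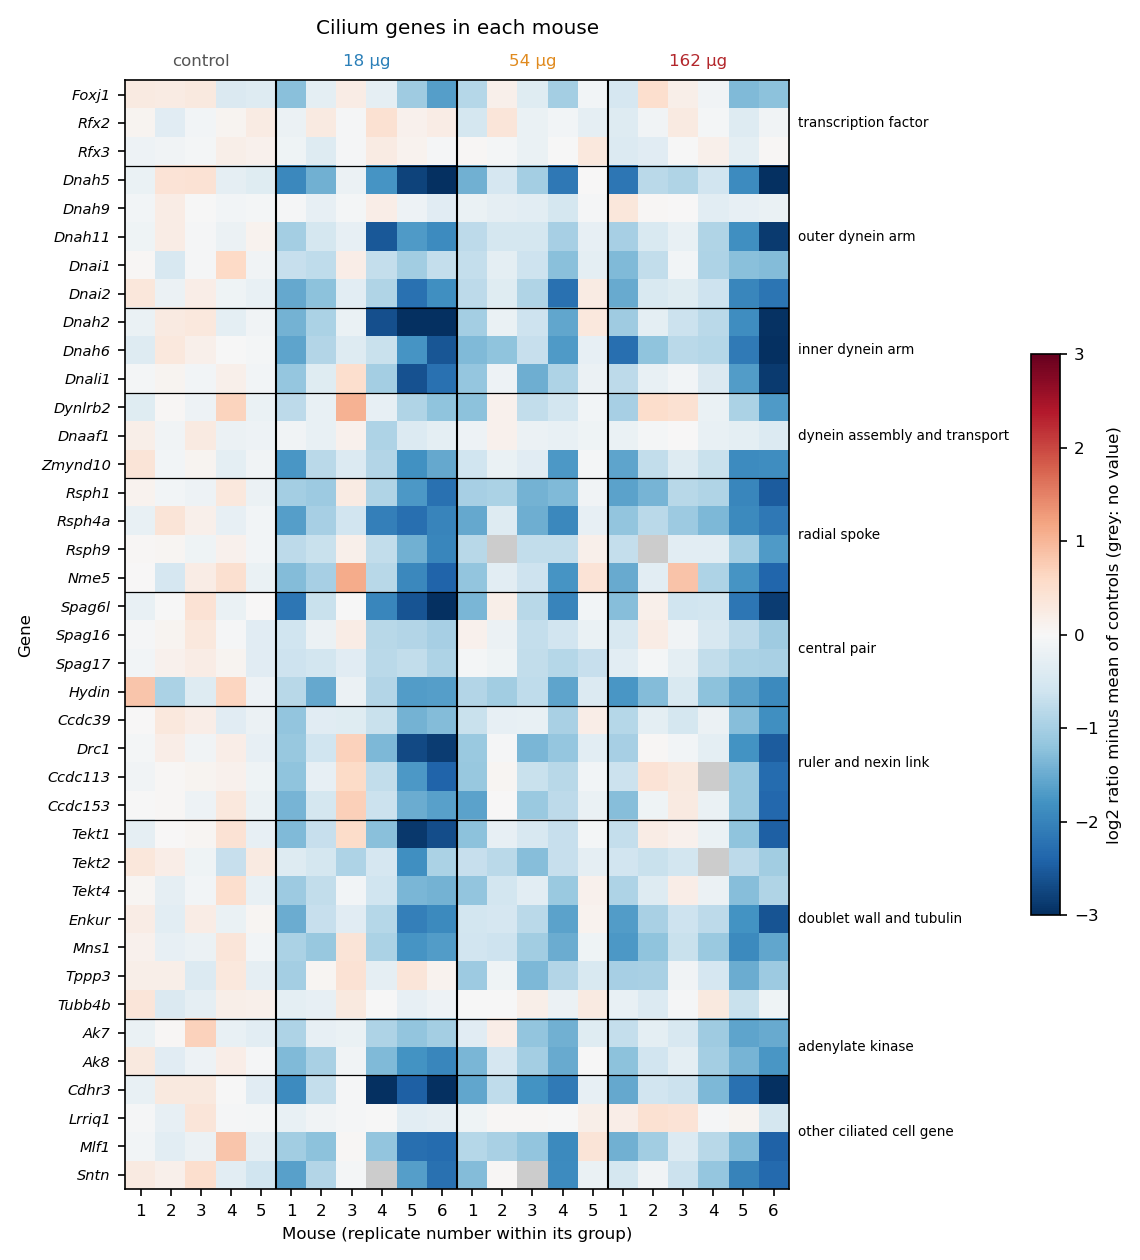
Log2 ratio of each of the 39 genes (rows, by part of the cilium) minus the mean of the controls, in each of the 22 mice (columns, by group and replicate number). Blue is lower than the control mean, red higher, and grey marks a spot left out; mice 5 and 6 at 18 µg and at 162 µg are blue across most rows, while mouse 3 at 18 µg and mouse 5 at 54 µg are near the controls.

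The outer dynein arm drives the beat. Its intermediate chains Dnai1 and Dnai2 were called at 162 µg and its heavy chains were not called at any dose. Dnai1 was 2.11, 1.59, 2.03, 2.66 and 1.98 in controls, and at 54 µg it was 1.35, 1.79, 1.46, 0.82 and 1.77. Its median was 1.36 (1.04 to 2.27) at 18 µg and 0.98 (0.75 to 1.99) at 162 µg. All but 1 mouse at 18 µg and all but 1 at 162 µg were below every control. In limma Dnai1 gave log2 fold changes of -0.57 (SE 0.13, adjusted p = 0.0437, under the 1.5-fold limit), -0.52 (SE 0.14, adjusted p = 0.182) and -0.92 (SE 0.13, adjusted p = 0.000702).

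Dnai2, the partner chain, was 3.31, 2.80, 3.17, 2.85 and 2.77 in controls, and its median was 1.60 (0.73 to 2.66) at 18 µg and 1.91 (0.79 to 2.62) at 162 µg. Every mouse at 18 µg and at 162 µg was below every control. At 54 µg Dnai2 was 2.19, 2.61, 2.08, 0.75 and 3.22, so mouse 5 was among the controls. For Dnai2 the log2 fold changes were -1.29 (SE 0.33, adjusted p = 0.0588), -0.74 (SE 0.35, adjusted p = 0.580) and -1.19 (SE 0.33, adjusted p = 0.0385).

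The heavy chain motors of the outer arm were not called. Dnah5 was 4.51 ± 0.39 (SD, n = 5) in controls, 2.60 ± 1.09 (n = 6) at 18 µg, 3.49 ± 0.83 (n = 5) at 54 µg and 2.80 ± 1.27 (n = 6) at 162 µg. In limma Dnah5 gave log2 fold changes of -1.68 (SE 0.48, adjusted p = 0.0855), -0.71 (SE 0.51, adjusted p = 0.794) and -1.64 (SE 0.48, adjusted p = 0.0527). All 6 mice at 162 µg were below every control, yet the adjusted p missed the threshold. Dnah11 gave -1.06, -0.17 and -1.0 with standard errors of 0.35 to 0.37, and every mouse at all 3 doses was below every control. At 54 µg its group mean was 2.13 against 2.75 in controls, a larger gap than the estimate with the slide term. The probe for Dnah9 was not well above background on any array of the controls, of 18 µg or of 54 µg, so no fold change is given for it.

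Inner dynein arms shape the bend of the cilium, and their heavy chain Dnah6 had the lowest estimate of all members at 162 µg. It was 5.48, 6.18, 6.02, 5.86 and 5.80 in controls and 4.54, 4.67, 5.18, 4.17 and 5.62 at 54 µg. Its median was 4.65 (3.30 to 5.49) at 18 µg and 4.21 (2.53 to 5.07) at 162 µg. The mice at 162 µg did not overlap the controls, and at 18 µg mouse 3 alone did. For Dnah6 the log2 fold changes were -1.25 (SE 0.34, adjusted p = 0.0776), -0.86 (SE 0.37, adjusted p = 0.517) and -1.80 (SE 0.34, adjusted p = 0.00509). Dnah2, another inner arm heavy chain, gave -1.62, -0.17 and -1.09 (SE 0.44 to 0.47) and the light intermediate chain Dnali1 gave -0.88, -0.30 and -0.85 (SE 0.40 to 0.43), with no call.

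Dynein arms are put together in the cytoplasm before they enter the cilium. Zmynd10, a factor of that assembly, was called at both 18 µg and 162 µg. It was 3.53, 3.07, 3.24, 2.85 and 3.05 in controls, with a median of 1.94 (1.33 to 2.74) at 18 µg and 1.99 (1.25 to 2.76) at 162 µg. Neither of these groups overlapped the controls. At 54 µg it was 2.55, 2.94, 2.81, 1.42 and 3.09, which overlaps them. In limma Zmynd10 gave log2 fold changes of -1.18 (SE 0.27, adjusted p = 0.0434), -0.54 (SE 0.29, adjusted p = 0.670) and -1.23 (SE 0.27, adjusted p = 0.0119). The assembly factor Dnaaf1 gave -0.19, 0.00 and -0.10 (SE 0.13) and the dynein light chain Dynlrb2 gave -0.18, -0.17 and -0.44 (SE 0.26 to 0.28), none of them called.

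Radial spokes reach from the doublets to the central pair. Rsph4a, a protein of the spoke head, was called at 18 µg and 162 µg. It was 2.75, 3.37, 3.12, 2.72 and 2.90 in controls, with a median of 1.15 (0.71 to 2.40) at 18 µg and 1.70 (0.82 to 2.17) at 162 µg. Every mouse at both doses was below every control. At 54 µg it was 1.43, 2.59, 1.52, 1.03 and 2.72, so that mouse 5 reached the lowest controls. For Rsph4a the log2 fold changes were -1.41 (SE 0.27, adjusted p = 0.0207), -0.86 (SE 0.28, adjusted p = 0.320) and -1.37 (SE 0.27, adjusted p = 0.00542). A second probe of Rsph4a, nearly as bright (mean log2 intensity 6.74 against 6.83), gave -1.03, 0.03 and -0.58 and was not called. As the mean of its probes Rsph4a was called neither at 18 µg nor at 162 µg.

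Rsph1, also of the spoke head, was called at 162 µg. It was 2.70, 2.52, 2.44, 2.90 and 2.43 in controls, 1.60, 1.65, 1.18, 1.27 and 2.48 at 54 µg, and had a median of 1.54 (0.36 to 2.84) at 18 µg. At 162 µg its median was 1.09 (0.10 to 1.77), with no mouse inside the control range. In limma Rsph1 gave log2 fold changes of -1.05 (SE 0.30, adjusted p = 0.0840), -0.72 (SE 0.32, adjusted p = 0.535) and -1.45 (SE 0.30, adjusted p = 0.00757). Its second probe was called at 162 µg as well, at -0.95 (adjusted p = 0.0272). The spoke protein Rsph9 gave -0.85, -0.30 and -0.77 (SE 0.29 to 0.33) after 1 outlier spot was dropped at 54 µg and 1 at 162 µg. Nme5 gave -0.87, -0.33 and -0.95 (SE 0.39 to 0.41). Neither was called.

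In the central pair, Hydin, a large protein of one of its projections, was called at 18 µg and 162 µg. It was 3.19, 1.4, 1.97, 3.00 and 2.19 in controls, and 1.47, 1.32, 1.59, 0.77 and 1.94 at 54 µg. Its median was 1.15 (0.67 to 2.18) at 18 µg and 0.89 (0.45 to 1.90) at 162 µg. Controls spread widely, and the exposed groups overlap the lowest controls. For Hydin the log2 fold changes were -1.14 (SE 0.20, adjusted p = 0.0172), -0.87 (SE 0.22, adjusted p = 0.136) and -1.30 (SE 0.20, adjusted p = 0.00126). Its second probe gave -0.53, -0.19 and -0.40 and was not called.

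The other central pair genes did not meet both criteria. Spag17 passed the test at 18 µg (-0.48, SE 0.10, adjusted p = 0.0259) and 162 µg (-0.42, SE 0.10, adjusted p = 0.0164) but stayed under the 1.5-fold limit. Its probe was dim, well above background on 4 of 5 control arrays, 2 of 6 at 18 µg, 2 of 5 at 54 µg and 3 of 6 at 162 µg. A second Spag17 probe, not expressed above background, gave -0.07, -0.17 and -0.18. Spag6l gave -1.43, -0.44 and -1.13 (SE 0.42 to 0.45) and Spag16 gave -0.34, -0.06 and -0.30 (SE 0.16 to 0.17).

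The molecular ruler sets the spacing of arms and spokes along the doublet, and nexin links hold neighbouring doublets together. Ccdc39, a protein of the ruler, was called at 162 µg. It was 1.92, 2.23, 2.13, 1.58 and 1.75 in controls, 1.25, 1.69, 1.70, 0.96 and 2.12 at 54 µg, and had medians of 1.00 (0.51 to 1.59) at 18 µg and 1.22 (0.08 to 1.74) at 162 µg. At 18 µg and at 162 µg the highest mice reached the lowest controls. In limma Ccdc39 gave log2 fold changes of -0.83 (SE 0.24, adjusted p = 0.0876), -0.29 (SE 0.25, adjusted p = 0.844) and -0.87 (SE 0.24, adjusted p = 0.0373). Drc1, of the nexin link, gave -1.02, -0.30 and -0.74. Ccdc113, with 1 spot dropped at 162 µg, gave -0.64, -0.05 and -0.55, and Ccdc153 gave -0.64, -0.42 and -0.77. No dose was called for these 3 genes, whose standard errors were 0.33 to 0.42.

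Proteins bound to the wall of the doublet and the tubulin gene Tubb4b made up 7 members, of which 4 were called. Mns1, which lies inside the doublet, was called at 18 µg and 162 µg. It was 0.30, -0.07, -0.01, 0.54 and 0.10 in controls and -0.39, -0.45, -0.87, -1.31 and 0.03 at 54 µg. Its median was -0.87 (-1.60 to 0.56) at 18 µg and -1.21 (-1.74 to -0.50) at 162 µg. No mouse at 162 µg overlapped the controls, while at 18 µg mouse 3 was above all of them. For Mns1 the log2 fold changes were -0.98 (SE 0.22, adjusted p = 0.0389), -0.62 (SE 0.24, adjusted p = 0.430) and -1.31 (SE 0.22, adjusted p = 0.00215).

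Enkur, another protein inside the doublet, was called at 162 µg. It was 2.89, 2.36, 2.88, 2.46 and 2.72 in controls and 2.11, 2.15, 1.85, 1.06 and 2.77 at 54 µg, with medians of 1.49 (0.62 to 2.31) at 18 µg and 1.34 (0.07 to 2.04) at 162 µg. Every mouse at 18 µg and at 162 µg was below every control. In limma Enkur gave log2 fold changes of -1.15 (SE 0.32, adjusted p = 0.0843), -0.55 (SE 0.35, adjusted p = 0.752) and -1.37 (SE 0.32, adjusted p = 0.0181). Tekt4, a tektin filament protein, was called at 18 µg and 162 µg with a smaller change at the higher dose. It was 3.15, 2.83, 3.01, 3.61 and 2.88 in controls and 1.91, 2.55, 2.78, 1.99 and 3.22 at 54 µg, with medians of 2.18 (1.68 to 3.01) at 18 µg and 2.44 (1.82 to 3.29) at 162 µg. Its groups overlapped the controls at every dose. For Tekt4 the log2 fold changes were -0.93 (SE 0.19, adjusted p = 0.0278), -0.55 (SE 0.21, adjusted p = 0.419) and -0.68 (SE 0.19, adjusted p = 0.0444).

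The tektins Tekt1 (-1.15, -0.10 and -0.60, SE 0.37 to 0.40) and Tekt2 (-0.85, -0.73 and -0.67, SE 0.25 to 0.26) were not called, and Tekt2 was read in 5 of the 6 mice given 162 µg. The tubulin gene Tubb4b, which many cells use, gave -0.21, -0.01 and -0.25 (SE 0.14 to 0.15) and was not called either.

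Tppp3, a tubulin-binding protein that marks ciliated cells, differed between doses. It was 5.48, 5.47, 4.89, 5.61 and 5.03 in controls, with a median of 5.38 (4.29 to 5.72) at 18 µg and 4.31 (3.81 to 5.19) at 162 µg. At 18 µg 1 of the 6 mice was below every control, 2 were above every control and 3 lay within their range, and at 162 µg all but 1 were below every control. At 54 µg it was 4.21, 5.16, 3.96, 4.41 and 4.83. In limma Tppp3 gave log2 fold changes of -0.03 (SE 0.25, adjusted p = 0.975), -0.64 (SE 0.27, adjusted p = 0.486) and -0.91 (SE 0.25, adjusted p = 0.0384). The difference between 162 µg and 18 µg was -0.88 (SE 0.23, adjusted p = 0.0411), and Tppp3 was the 1 member called between these doses, where 4.98% of the expressed named genes were called in either direction. The call is lost in 13 of the 22 fits that leave out 1 mouse, in which the difference ranged from -1.06 to -0.71.

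Adenylate kinases of the axoneme recycle nucleotides for the dyneins. Ak7 was 1.53, 1.76, 2.41, 1.52 and 1.42 in controls and 1.38, 1.94, 0.55, 0.30 and 1.38 at 54 µg, with medians of 0.80 (0.55 to 1.52) at 18 µg and 0.83 (0.14 to 1.44) at 162 µg. Its ranges overlap the lowest controls at every dose, and its probe was dim, with 3 of 6 arrays at 162 µg well above background against 5 of 5 controls. For Ak7 the log2 fold changes were -0.51 (SE 0.17, adjusted p = 0.147), -0.39 (SE 0.18, adjusted p = 0.574) and -0.83 (SE 0.17, adjusted p = 0.00772). Ak8 was 2.81, 2.18, 2.36, 2.71 and 2.48 in controls and 1.15, 2.01, 1.49, 1.01 and 2.49 at 54 µg, with medians of 1.19 (0.56 to 2.40) at 18 µg and 1.38 (0.77 to 2.21) at 162 µg. All but 1 mouse at each of these doses were below every control. In limma Ak8 gave log2 fold changes of -1.14 (SE 0.27, adjusted p = 0.0460), -0.68 (SE 0.29, adjusted p = 0.50) and -0.99 (SE 0.27, adjusted p = 0.0363).

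Of the remaining genes known from ciliated cells none was called. Cdhr3, a cadherin of the ciliated cell surface, gave -1.49, -0.63 and -1.44 (SE 0.47 to 0.51), and its 6 mice at 162 µg were all below every control. Mlf1 gave -1.28, -0.66 and -1.18 (SE 0.35 to 0.37) and Sntn, the gene of a ciliary tip protein, gave -1.01, -0.50 and -1.05 (SE 0.33 to 0.36) with 1 spot dropped at 18 µg and 1 at 54 µg. Lrriq1 gave -0.08, 0.09 and 0.12 (SE 0.13 to 0.14), and was the 1 member with estimates above 0 at 54 µg and 162 µg. Its other expressed probe gave -0.45, -0.13 and -0.25, without a call, so its direction depends on the probe. The brightest Lrriq1 probe was itself dim. It was well above background on 4 of 5 control arrays, 1 of 6 at 18 µg, 2 of 5 at 54 µg and 3 of 6 at 162 µg.

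**Figure D2:**
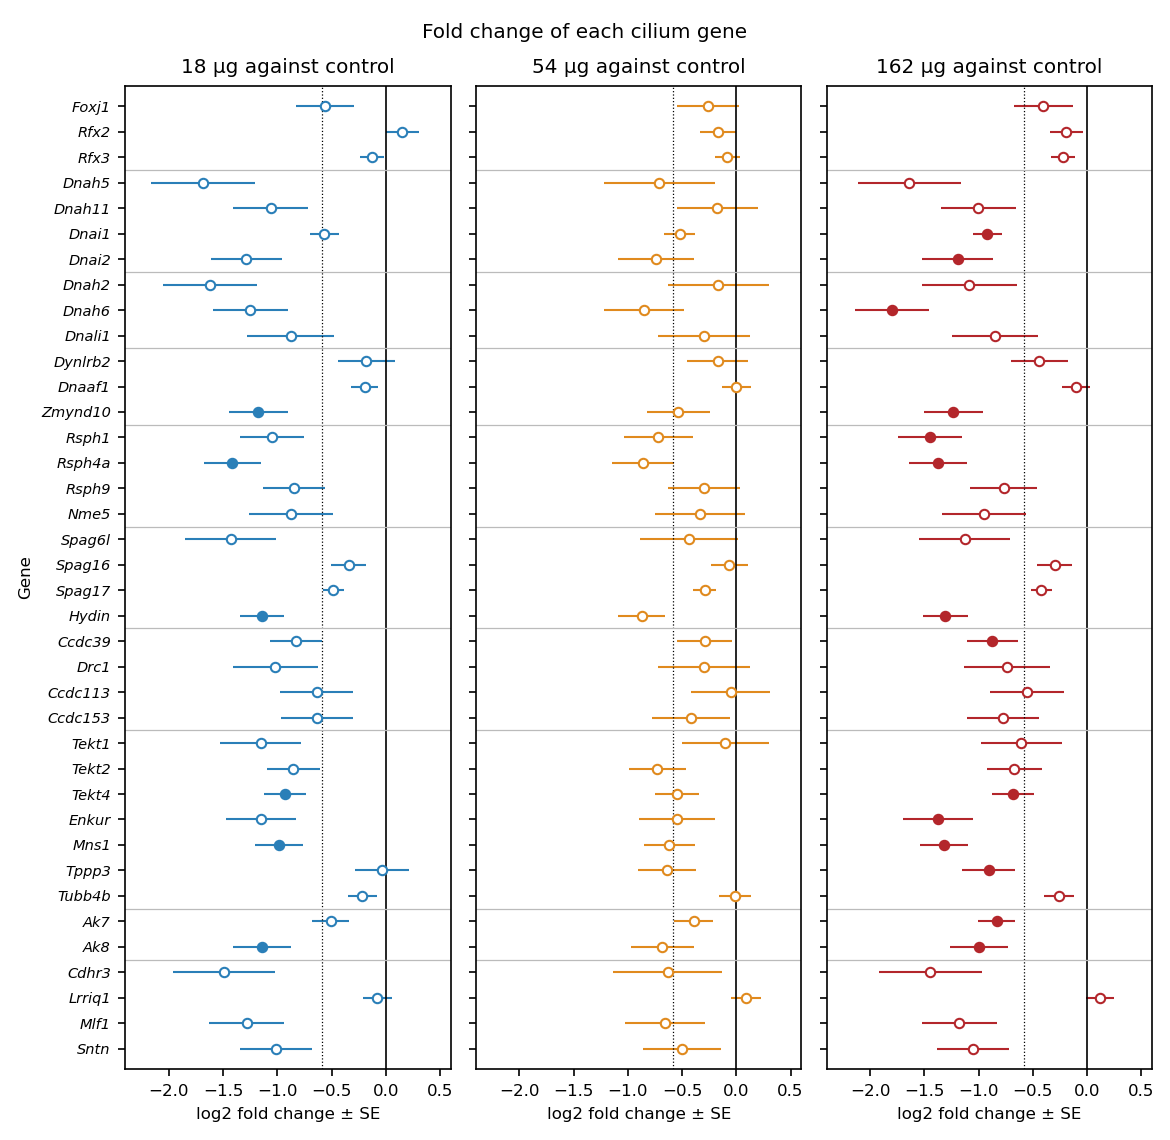
Log2 fold change against control (x axis) with its standard error for 38 genes (y axis, by part of the cilium; Dnah9 is left out because it was near background) at 18, 54 and 162 µg. Filled points were called, open points were not, the dotted line marks a 1.5-fold decrease, and nearly all points lie left of 0 at every dose.

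**Figure D3:**
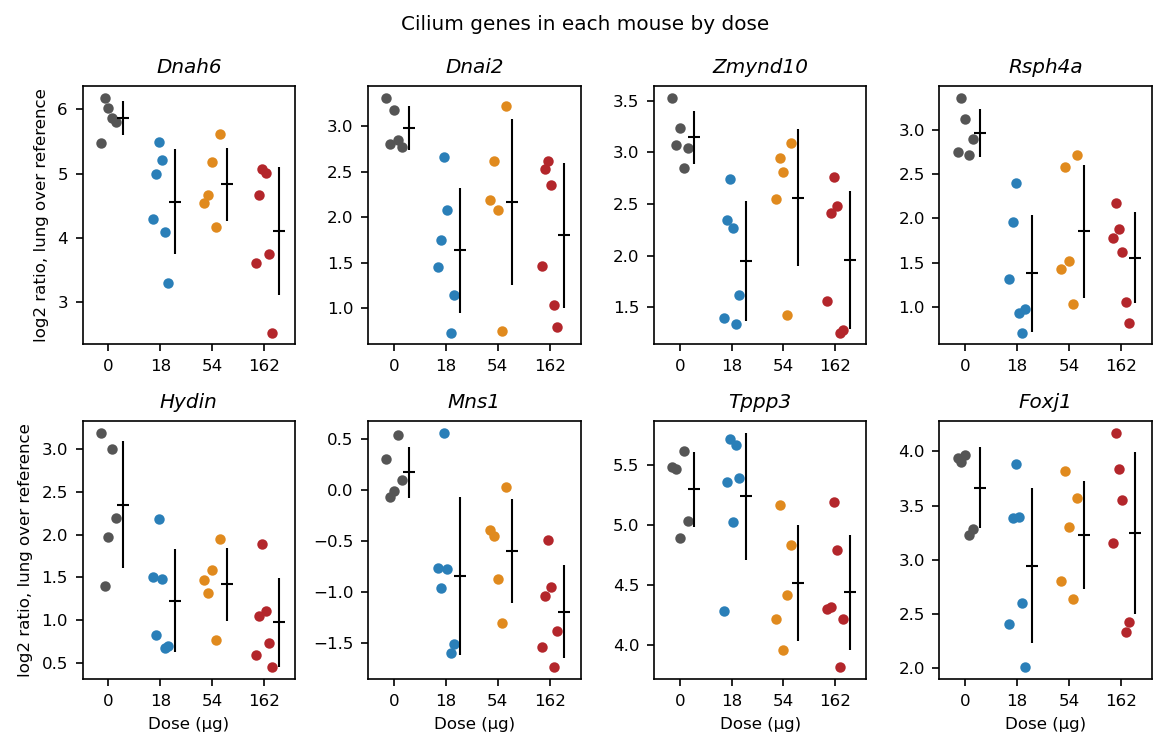
Log2 ratio of lung to reference (y axis) against dose (x axis) for 7 called genes and Foxj1, with 1 point per mouse and the mean ± SD beside each group. Rsph4a at 18 and 162 µg lies below all controls, Tppp3 at 18 µg lies on both sides of them and among them, and Foxj1 overlaps them at every dose.

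Read over the whole set, 38 of the 39 members, Dnah9 included although near background, had a negative estimate at each dose, the exceptions being Rfx2 at 18 µg and Lrriq1 at 54 µg and 162 µg. The 6 called at 18 µg were Zmynd10, Rsph4a, Hydin, Tekt4, Mns1 and Ak8, where 0.633% of all expressed named genes were called higher. The 14 called at 162 µg were those 6 and Dnai1, Dnai2, Dnah6, Rsph1, Ccdc39, Enkur, Tppp3 and Ak7, where 3.32% were called higher. At 54 µg 0.219% of the named genes were called higher. At 18 µg 28 members and at 162 µg 27 had an unadjusted p under 0.05 in limma, beside 3658 and 4735 of the 16426 expressed named genes. Of the members, 12 with such a p at both doses were called at neither. Every mouse of the group lay below every control for 5 members at 18 µg (1.99% of the named genes), 2 at 54 µg (1.8%) and 13 at 162 µg (4.49%).

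The size of the change did not follow the order of the doses. The estimate was lower at 18 µg than at 54 µg in 36 members, lower at 162 µg than at 54 µg in 36, and lower at 162 µg than at 18 µg in 17 of the 39. The smaller change at 54 µg did not hold throughout: without mouse 5 at 54 µg its median moved from -0.39 to -0.68, and without the 6 dimmest arrays the medians were -0.55, -0.65 and -0.62. Leaving out those arrays kept only mice 1, 2 and 3 at 18 µg. The estimates also include the slide term. Without it, the median of the 39 genes in each mouse, minus the control mean, had group medians of -0.97, -0.74 and -0.78. At 54 µg that value is further from 0 than the -0.39 of the fit. The same controls enter all 3 comparisons, so the doses are not independent of each other. Between 54 µg and 18 µg limma called 0 members (7 with an unadjusted p under 0.05), beside 0.0304% of the named genes in either direction. Such a p was found for 2453 of the 16426 expressed named genes. Between 162 µg and 54 µg limma called 0 members (11 with an unadjusted p under 0.05), beside 0% of the named genes. Here 2026 of the 16426 expressed named genes had such a p.

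In these 39 genes exposed mice also differed among themselves more than controls did. The SD of the log2 ratio was above that of the controls for 35 of 39 members at 18 µg, 34 at 54 µg and 36 at 162 µg, and its median over members was 0.26 in controls, 0.69, 0.52 and 0.64. These SDs were taken without the slide term, and the same count over all genes was not made. Slides 3 and 6 and the arrays under 1.4 times background held exposed mice only. Their part in the spread was not tested. Taken as the median of the 39 genes minus the control mean, the controls lay between -0.16 and 0.07. The mice at 18 µg, numbers 1 to 6, had -1.09, -0.67, -0.03, -0.84, -1.70 and -1.68. The mice at 54 µg, numbers 1 to 5, had -0.86, -0.22, -0.74, -1.10 and -0.09. The mice at 162 µg, numbers 1 to 6, had -0.99, -0.33, -0.30, -0.56, -1.39 and -1.86. Mouse 3 at 18 µg and mouse 5 at 54 µg were inside the control range, and all other exposed mice were below it. Mouse 3 at 18 µg was above every control in 10 members and below every control in 7, while mouse 6 at 162 µg was the lowest of the 22 mice in 16 members.

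Low members went together with dim arrays in part of the mice. As median Cy5 signal relative to background, controls spanned 1.52 to 2.05 and the dose groups 1.24 to 2.11, 1.37 to 2.07 and 1.18 to 2.50. The dimmest array, of mouse 6 at 162 µg, was also the lowest in the set. On the brightest array, of mouse 1 at 162 µg, the median of the members was -0.99. Without the 6 arrays under 1.4 times background the members had median changes of -0.55, -0.65 and -0.62, and 0, 0 and 10 members were called lower. The arrays left out were mice 4, 5 and 6 at 18 µg, mouse 4 at 54 µg and mice 5 and 6 at 162 µg. At 18 µg this left mice 1, 2 and 3, of which mouse 3 lay inside the control range. A smaller group and dimness therefore cannot be told apart in these counts. Beyond these values the part of array brightness was not tested.

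Slides 3 and 6 held no control, and the other 5 slides allowed 11 comparisons of an exposed mouse with the control of its own slide. The median difference over the members was -1.10 and -0.97 on slide 1, -0.64 and -0.90 on slide 2, 0.00 and -0.27 on slide 4, -0.40 and -0.46 on slide 5, and -1.55, -0.96 and -1.22 on slide 7. The value of 0.00 belonged to mouse 3 at 18 µg, in which 19 of 39 members were lower than in the control of that slide, and in the other 10 mice 30 to 38 were lower. With the 16 arrays of these slides alone, 15 members were called lower at 18 µg, 6 at 54 µg and 21 at 162 µg.

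**Figure D4:**
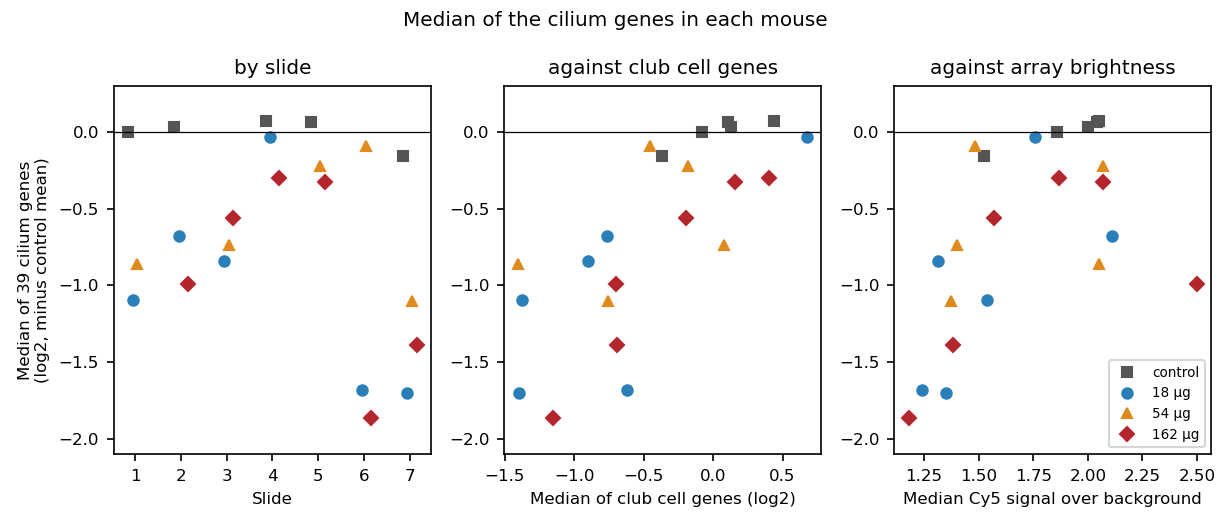
Median of the 39 genes in each of the 22 mice, as log2 ratio minus the control mean (y axis), against slide, against the same median of 9 club cell genes and against the median Cy5 signal over background (x axes). All exposed mice except mouse 3 at 18 µg and mouse 5 at 54 µg lie below the 5 controls, and the 4 lowest mice are on slides 6 and 7 on arrays at 1.18 to 1.38 times background.

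Genes of the cilium outside the set were read from a list of 100 motile cilium genes, of which 75 had a probe and 71 were expressed. Their median log2 fold change was -0.65, -0.29 and -0.64, with 10, 0 and 21 called lower and none called higher. Of the 71, 53, 18 and 44 had an unadjusted p under 0.05 in limma. Cfap161, a cilia and flagella associated protein, had the largest change among those called at -1.67 (SE 0.22, adjusted p = 0.000382) at 162 µg and -1.26 (SE 0.22, adjusted p = 0.0153) at 18 µg. Wdr78, a dynein intermediate chain of an inner arm, Iqca1 and Ttll9, a tubulin tyrosine ligase-like enzyme, followed at -1.61, -1.59 and -1.57 at 162 µg. The regulators of multiciliated cell formation in this list differed in their calls: Myb was called at 18 µg (-1.01, SE 0.21) and 162 µg (-1.31, SE 0.21), Ccno (-0.95), Gmnc (-0.90) and Foxn4 (-0.88) at 162 µg, and Mcidas gave -0.22, 0.06 and 0.13 with no call. These 5 were named after their values were seen.

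Genes of transport into the cilium, which primary cilia of other cells also use, had medians nearer 0. Of 44 listed, 39 had a probe and 38 were expressed. Their median was -0.38, -0.27 and -0.37, with 5, 0 and 9 called lower and none called higher. Of the 38, 26, 18 and 22 had an unadjusted p under 0.05 in limma. Every mouse of the group lay below every control for 8, 3 and 8 of them. Their median SE was also smaller, 0.13 to 0.14 against 0.27 to 0.29 for the members. The intraflagellar transport genes Ift80 (-1.09, SE 0.14) and Ift122 (-1.06, SE 0.14) and the chaperonin-like gene Mkks (-0.91, SE 0.19) were called at 162 µg. Dync2h1, the heavy chain of the retrograde transport dynein, was called at 18 µg (-0.87, SE 0.15) and 162 µg (-0.60, SE 0.15). Whether these lists differ from the 39 members was not tested. The shares of all named genes called, with such a p or with every mouse below every control are those given for the members.

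Markers of other airway cells were set beside the members. Of 10 club cell genes 9 had a probe, and all 9 were expressed. They had medians of -0.94, -0.55 and -0.47, with Aldh1a1 called at 18 µg (-1.11, SE 0.23) and Cyp2f2 at 162 µg (-1.0, SE 0.19). Of these 9 genes, 9, 7 and 8 had a negative estimate, and 6, 3 and 4 had an unadjusted p under 0.05 in limma. Such a p was found for 3658, 2261 and 4735 of the 16426 expressed named genes. Scgb1a1, the secretoglobin of club cells, gave -0.17, -0.51 and -0.36 (SE 0.29 to 0.31) and was not called. As a median per mouse minus the control mean, the club cell genes spanned -0.37 to 0.44 in controls, and -1.4 to 0.67, -1.4 to 0.08 and -1.15 to 0.40 in the dose groups. Mouse 3 at 18 µg was the highest of the 22 mice in this list. The part of the share of airway tissue in each lung sample was not tested.

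The 6 goblet cell genes had medians of -0.61, 0.20 and 0.00 with none called, and 2 of them had an unadjusted p under 0.05 at 18 µg and 0 at 54 µg and 162 µg. The 6 basal cell genes had -0.14, 0.14 and -0.29 with none called and none with an unadjusted p under 0.05. Among the 6 neuroendocrine genes (-0.40, -0.10 and -0.26) Resp18 was called lower at 18 µg (-0.93, SE 0.19), and Calca (1.44, SE 0.35) and Uchl1 (0.73, SE 0.15) were called higher at 162 µg. Alveolar lists stayed near 0: the 10 type II genes had medians of 0.20, -0.03 and 0.09 and the 8 type I genes 0.14, 0.11 and 0.14. Pdpn among the type I genes (1.04, SE 0.21) and Napsa among the type II genes (0.72, SE 0.19) were called higher at 162 µg. Neutrophil genes (7 of 8 measured) had -0.06, 0.19 and 0.64 with none called (1, 0 and 2 with an unadjusted p under 0.05). One control stood apart in this list: as a median per mouse minus the control mean, control 2 had 2.34 and the other controls -0.71 to -0.25. The medians of these values were -0.40 in controls and -0.17, 0.16 and 0.42 in the dose groups. Alveolar macrophage genes (8 of 8) had -0.39, -0.02 and 0.37, with Chil3 higher at 18 µg (1.73, SE 0.41) and Marco at 162 µg (1.51, SE 0.28). The remaining lists had medians of 0.19, 0.01 and 0.06 (endothelial), -0.11, 0.38 and -0.04 (smooth muscle), 0.34, -0.47 and -0.60 (B cell) and 0.06, -0.40 and -0.16 (T cell). In them the endothelial gene Kdr (0.65, SE 0.16) was called higher at 18 µg, and 2 B cell genes, Ms4a1 (-0.89, SE 0.20) among them, and the T cell gene Lck (-0.83, SE 0.16) were called lower at 162 µg.

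**Figure D5:**
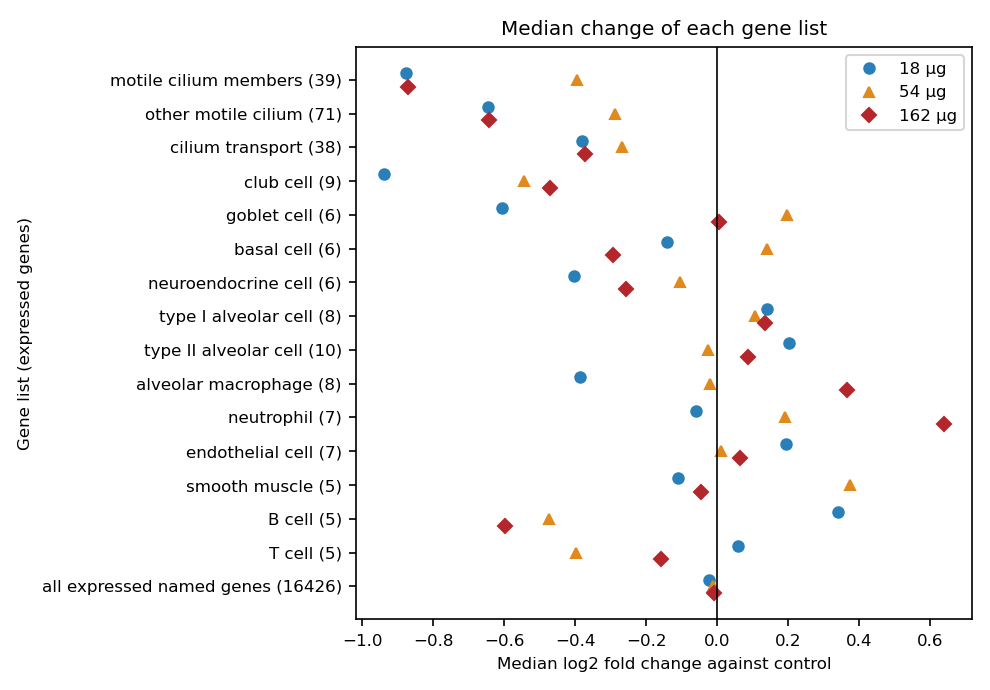
Median log2 fold change against control (x axis) of each gene list (y axis, with the number of expressed genes) at 18, 54 and 162 µg. The 3 cilium lists lie left of 0 at every dose, as do the club and neuroendocrine cell genes, and all expressed named genes lie at 0.

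The calls depended on the normalization and on single mice. Without normalization between the dyes 0 members were called at 18 µg and 0 at 162 µg, while limma gave 39 and 38 of the 39 a negative estimate and their median lay -0.75 and -0.72 from that of all genes. The 18 µg count of 6 became 0 without control 1, control 5 or mouse 5 at 18 µg, 2 without mouse 1 or mouse 4 at 18 µg, and 3 without control 3, mouse 1 or mouse 2 at 54 µg, or mouse 1 at 162 µg. It became 17 without mouse 5 at 54 µg or mouse 6 at 162 µg. The 54 µg count of 0 became 8 without mouse 5 at 54 µg. The 162 µg count of 14 became 7 without control 5, 8 without mouse 1 at 162 µg, and 9 without control 1, control 2, control 3 or mouse 6 at 162 µg. Of the 14 genes called at 162 µg, 7 were called in every 1 of these 22 fits: Dnai1, Dnah6, Rsph1, Rsph4a, Hydin, Mns1 and Ak7. Of the 6 called at 18 µg, none was, and Rsph4a and Hydin were called in 19 fits, Tekt4 in 17, Mns1 in 11, Zmynd10 in 7 and Ak8 in 5. The median change of the members stayed negative in all 22 fits, between -1.14 and -0.72, between -0.68 and -0.23 and between -1.04 and -0.69 by dose.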

How the data were processed

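Per the labels and the study's methods, the authors hybridised the RNA of 22 mouse lungs against a common reference on Agilent mouse arrays. The deposited scanner files, written by Feature Extraction 10.7.3.1, hold the intensity of each spot in both channels and are not normalized. The authors' deposited log2 table, whose normalization is not stated in the sources used here (array medians -0.05 to -0.02), was used as an alternative. No counts exist, so precision is limited by the number of arrays, and no depth applies.

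From the median intensity of both dyes, without background subtraction, log2 ratios (Cy5 over Cy3) were computed in limma 3.58.1 (R 4.3.3) after loess with a span of 0.3, with control spots at weight 0 and outlier-flagged spots left out. Spots of a probe were summarised by their median (55681 probes). Lung RNA was always Cy5, with no dye swap, so a dye effect common to all arrays cancels between groups. The fit had dose and slide (7 slides) as terms and 12 residual degrees of freedom, and limma's moderated test took the place of the F test of the methods. A call required an adjusted p of at most 0.05 over all probes, a change of at least 1.5-fold and expression, that is, Cy5 above the 5% trimmed mean plus 3 trimmed SD of 308 negative controls in 80% or more of a group's arrays.

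Through RefSeq accessions (GRCm38.p6 gene table), 26413 probes were named, and each gene was read on its brightest probe. Dnai1 and Dnai2 stand in that table as Dnaic1 and Dnaic2. The members and lists were chosen with earlier results of these data known, so no test over the list was run. All measured members are named, with values per mouse for up to 3 called genes of each part of the cilium and the transcription factors. Tppp3 was added after its values were seen. Up to 4 genes of each other list are named, by size of change among those called, except 1 gene that is not reported here. Replicates are separate mice. On simulated data where 200 of 36388 probes carried a log2 change of 1.5, 98% were recovered at each dose, with 8, 8 and 5 false calls. The median SE of the members was 0.27 to 0.29 against control, beside 0.14 to 0.15 over all expressed named genes, so that recovery does not describe the members. Alternatives covered background correction, normalization, the Cy5 channel alone, the deposited table, the slide, the samples fitted, filters, probes and leaving out each mouse.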

Additional observations from a re-analysis of the deposited data

Results flagged for a closer look

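In 5 of 160 sets of values tested (each member, and the median of the members, in the controls and each dose group), 1 mouse stood apart from the rest of its group, where chance flags about 1 in 20. The log2 ratio of Dnai1 was 2.27 in mouse 3 at 18 µg, with the next value at 1.39. Rsph9 was 3.18 in mouse 5 at 54 µg, with the next at 2.30 and 4 mice measured. These 2 mice were also the exposed mice whose members as a whole lay within the control range. Mlf1 was 2.86 in control 4, next to 1.94. Dnah9, whose probe was near background, was 0.41 in control 2, next to 0.19, and Dnaaf1 was 0.37 in mouse 2 at 54 µg, next to 0.10. Tppp3 differed between 162 µg and 18 µg by -0.88 on the log2 scale, by the limma test of that difference (adjusted p = 0.0411).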

How the results depend on the processing

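The median log2 fold change of the members kept its negative sign at each dose in all 15 alternatives and in all 22 fits that leave out a mouse, while the counts of calls did not hold. Called lower at 18 µg (6 in the fit reported) were 0 members without normalization, 3 in the Cy5 channel alone, 1 in the deposited table, 1 without the slide term, 10 with slide as a random block, 0 with only the 2 groups compared, 0 with the arrays at or above 1.4 times background and 15 with the slides that hold a control. At 54 µg (0) they were 18 with only the 2 groups compared and 6 with the slides that hold a control. At 162 µg (14) they were 0 without normalization and 8 without the slide term. The 2 selections of arrays were chosen after seeing the data. For other motile cilium genes, the count at 18 µg (10) was 6 with median centring, 0 without normalization, 1 in the deposited table, 2 without the slide term, 0 with only the 2 groups compared, 0 on the brighter arrays and 17 on slides with a control. At 54 µg (0) it was 2 with the random block, 21 with only the 2 groups and 4 on slides with a control, and at 162 µg (21) it was 0 without normalization. For cilium transport genes, the count at 18 µg (5) was 0 with median centring, 0 without normalization, 1 in the Cy5 channel, 1 in the deposited table, 1 with only the 2 groups, 8 with no fold threshold and 0 on the brighter arrays. At 54 µg (0) it was 2 with only the 2 groups, and at 162 µg (9) it was 2 with median centring, 0 without normalization, 15 with no fold threshold and 5 on the brighter arrays. The call of Tppp3 between 162 µg and 18 µg became 0 calls with median centring, without normalization, in the deposited table, without the slide term, with the replicate block, on the brighter arrays and on slides with a control. The cause of these differences was not tested.

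Leaving out each mouse moved the members called by dose within 0 to 17, 0 to 8 and 7 to 19, and those called between 162 µg and 18 µg within 0 to 1. The other motile cilium genes called ranged from 0 to 27, 0 to 6 and 12 to 27, and the cilium transport genes from 0 to 8, 0 to 2 and 6 to 10. The estimates near 0 changed sign. Without a mouse, Tppp3 at 18 µg ranged from -0.21 to 0.21, and at 54 µg Foxj1 from -0.49 to 0.0099, Rfx3 from -0.15 to 0.013, Dnah11 from -0.42 to 0.087, Dnah2 from -0.61 to 0.15, Dnaaf1 from -0.078 to 0.080, Spag16 from -0.18 to 0.10, Ccdc113 from -0.42 to 0.17, Tekt1 from -0.43 to 0.17, Tubb4b from -0.10 to 0.10 and Lrriq1 from -0.011 to 0.21. With median centring Lrriq1 at 18 µg was 0.033 and Dnaaf1 at 54 µg was 0.022. Without normalization Rfx2 was -0.10 at 18 µg, and at 54 µg Rfx2 was 0.016, Rfx3 0.11, Dnaaf1 0.18, Spag16 0.077, Ccdc113 0.063, Tekt1 0.027 and Tubb4b 0.11. In the Cy5 channel Tubb4b at 54 µg was 0.042 and Lrriq1 was -0.068 at 54 µg and -0.081 at 162 µg. In the deposited table Lrriq1 at 18 µg was 0.023 and Tubb4b at 54 µg was 0.023. At 54 µg Rfx3 was 0.014 and Tubb4b 0.048 both without the slide term and with the replicate block, Tubb4b was 0.022 with the random block, and Rfx3 was 0.017 and Lrriq1 -0.13 with only the 2 groups. As the mean of its probes Lrriq1 was -0.022 at 54 µg and -0.062 at 162 µg. On the brighter arrays Dynlrb2 at 18 µg was 0.086, Tubb4b at 54 µg 0.0055 and Lrriq1 at 54 µg -0.013, and on slides with a control Lrriq1 at 54 µg was -0.048. Dnah9, near background, is left out of these values. Among the other 38 members no further change of sign occurred, and none of these estimates was called in the fit reported.

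The groups share replicate numbers, which the labels do not tie to a litter or day. Deviations of arrays with the same number correlated from -0.169 to 0.624, and 12 of 22 arrays correlated best with their own number. With the replicate block in place of slide, 8, 0 and 12 members were called lower at 18, 54 and 162 µg. Without normalization the median of all genes shifted by -0.42, 0.13 and -0.21, and with median centring by -0.26 at 18 µg and -0.18 at 162 µg. The median of the members lay -0.75, -0.37 and -0.72 from that of all genes without normalization, -0.74, -0.37 and -0.71 with centring and -0.86, -0.38 and -0.86 as reported. Dim signals limit 16 members that were not well above background on every array.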
